A study of Mus musculus with 2 samples.

Results

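Microglia are the brain's resident macrophages, and those called G2/M here had RNA of several genes typical of G2 and mitosis. The rule does not exclude cells that were still replicating DNA. The cells were taken 3 days into repopulation of a brain from which microglia had been removed. They were picked by their counts: a barcode was a G2/M microglial cell when it had UMIs (unique molecular identifiers, each standing for 1 captured RNA molecule) of at least 5 of 12 G2/M genes. The 12 genes were Mki67, Top2a, Cdk1, Ccnb1, Ccna2, Birc5, Cenpf, Ube2c, Nusap1, Tpx2, Prc1 and Aurkb. The cell also needed UMIs of at least 3 of the 4 microglial genes P2ry12, Tmem119, Siglech and Fcrls, at least 500 genes, at most 10% mitochondrial UMIs, and less than 1% of its UMIs from the neutrophil genes S100a8 and S100a9 together. This rule found 1201 cells among 4486 microglia and 5696 barcodes, 474 of them in the Hk2 cKO library and 727 in the Hk2 fl/fl library.

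Both libraries came from C57BL/6 mice whose Hk2 alleles are floxed. In the Hk2 cKO library the mice also carried Cx3cr1CreER, a tamoxifen-inducible Cre recombinase placed under the Cx3cr1 promoter, which is active in microglia and in other Cx3cr1-expressing myeloid cells. The Hk2 fl/fl library came from floxed mice with no Cre named. Tamoxifen was injected on consecutive days shortly after birth unless otherwise indicated, and cells that stained high for CD11b and low for CD45 were sorted from the brain. The labels do not give the age at collection, the method of depletion, the number of animals behind a library, whether fl/fl mice received tamoxifen, or which exons are floxed. There was 1 library per genotype, so no difference between genotypes has a replicate check or a test. Brackets hold exact 95% intervals of the counts, Poisson for a level and Clopper-Pearson for a share, which take in counting error alone.

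A cell enters mitosis when cyclin B and its kinase CDK1 become active. Chromosomes are then condensed by condensins and topoisomerase II, attached to the spindle through kinetochores, and separated once the anaphase-promoting complex (APC/C), with the ubiquitin-conjugating enzyme encoded by Ube2c, has cyclin B and securin destroyed. Chromosomal passenger proteins and central-spindle proteins then guide the cleavage of the cell. After depletion, the microglia that survive divide and refill the brain. Hk2 encodes hexokinase 2, which carries out the entry step of glycolysis, the phosphorylation of glucose.

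The deposited libraries held 2607 barcodes and 32896996 UMIs (Hk2 cKO) and 3089 barcodes and 37476201 UMIs (Hk2 fl/fl), and they shared 2 barcodes, neither of them a G2/M cell. G2/M cells were more deeply covered than microglia outside the cycle: their median was 17879.5 UMIs in cKO and 16776 in fl/fl, against 9913.5 and 7598 UMIs in microglia with at most 1 of the 12 G2/M genes and at most 1 of 12 S-phase genes, called neither-dividing below (788 cKO and 854 fl/fl cells). More than double the median UMIs of their own library's neither-dividing microglia were found in 43.7% of G2/M cells in cKO and in 54.6% in fl/fl. The rules themselves sort cells by depth, since a deeper cell more easily has UMIs of 5 genes and a shallow cell of at most 1. Microglia with 0 of the 12 G2/M genes had medians of 9609 UMIs in cKO and 7365 in fl/fl, and those with all 12 had 24005 and 23314. The part of the rules in the depth gap was not tested. Doublets were not removed, and their part in these values was not tested. A further class, S-phase microglia, held the cells outside G2/M with UMIs of at least 5 of the 12 S-phase genes (201 cKO and 178 fl/fl cells). It was about as deep as G2/M, with medians of 18037 UMIs in cKO and 15842.5 in fl/fl.

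The cells of the fl/fl library fell apart by the pair mt-Nd3, a mitochondrial gene of respiratory complex I, and the gene model Gm28438. Among G2/M cells, 438 of 474 (92.4%) in cKO had UMIs of Gm28438 and none of mt-Nd3, against 146 of 727 (20.1%) in fl/fl. In contrast, 2 G2/M cells in cKO and 356 (49.0%) in fl/fl had mt-Nd3 only, and 13 in cKO and 147 (20.2%) in fl/fl had both. The fl/fl G2/M cells with both had a median of 31653 UMIs, against 14319 in Gm28438-only and 16161 in mt-Nd3-only fl/fl cells. What separates these cells is not stated in the labels. The genotype comparisons of gene lists were therefore repeated between the Gm28438-only cells of both libraries, and the value is given where the direction of a list described below turned.

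The number of the 12 genes detected per cell ran without a gap across the limit. In cKO, 103 microglia had 4 of the 12 genes and fell just outside, and 64 had 5 and fell just inside. In fl/fl, 172 had 4 and 123 had 5. The summed level of the 12 genes was 621 CPM (577–669), UMIs summed over the cells and scaled to 1000000 UMIs of the same cells, in cKO cells with 5 genes, against 446 (416–477) in cKO cells with 4, and 593 (561–626) in fl/fl cells with 5, against 482 (457–509) in fl/fl cells with 4. At the top, 103 cKO and 155 fl/fl cells had all 12 genes, with sums of 4167 and 3190 CPM. These values belong to the rule and are given as its description.

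**Figure D1:**
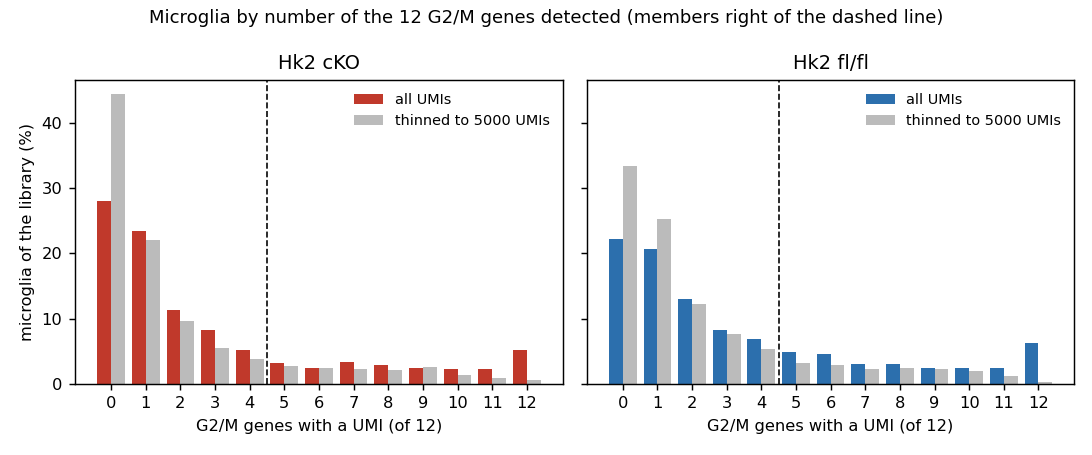
Percent of each library's microglia (y axis) by how many of the 12 G2/M genes had a UMI (x axis), with all UMIs (coloured bars) and after thinning each cell to 5000 UMIs (grey bars), Hk2 cKO left and Hk2 fl/fl right. Cells with 4 genes made up 5.17% of cKO microglia and lie just left of the dashed limit, and thinning moves cells to the left.

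G2/M cells made up 474 of 1994 microglia in cKO, or 23.8% (21.9–25.7), and 727 of 2492 in fl/fl, or 29.2% (27.4–31.0). The share was thus lower in cKO by 5.40 percentage points, with intervals that did not overlap. The gap was smaller at equal depth, and it was 2.41 points without the cells with both mt-Nd3 and Gm28438. When each cell was thinned to 5000 UMIs, the shares were 275 of 1864, or 14.8% (13.2–16.5), in cKO and 378 of 2318, or 16.3% (14.8–17.9), in fl/fl, and the intervals overlapped. Thinning left out 130 cKO and 174 fl/fl microglia that were shallower. At 2500 UMIs the shares were 9.08% in cKO and 9.74% in fl/fl. Among Gm28438-only microglia the shares were 25.4% (23.4–27.6) in cKO and 30.0% (26.0–34.3) in fl/fl, with overlapping intervals, whereas 54.2% (48.1–60.3) of the deep fl/fl microglia with both were in G2/M.

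Free RNA can give a cell UMIs of genes it does not express, so the same 5-gene limit was read in cells outside the microglial filters. Only the first group below was chosen as cells that should not divide. The other groups may hold dividing cells, so their shares do not measure free RNA. Of cells with at least 1% S100a8 and S100a9 UMIs and no UMI of the 4 microglial genes, which are neutrophil-like (mature neutrophils do not divide), 2 of 58 in cKO (3.45%, 0.420–11.9) and 2 of 30 in fl/fl (6.67%, 0.818–22.1) met it. Their median depths were 8317 and 5988 UMIs, against 12551 and 10682 UMIs in all microglia. Of all cells with no UMI of the 4 microglial genes, 12 of 143 in cKO (8.39%, 4.41–14.2) and 8 of 119 in fl/fl (6.72%, 2.95–12.8) met it. Of all cells with at least 1% S100a8 and S100a9 UMIs, whether or not they had microglial genes, 11 of 89 in cKO (12.4%, 6.33–21.04) and 17 of 75 in fl/fl (22.7%, 13.8–33.8) met it. The G2/M share of microglia with all UMIs was above each of these shares in its library, but in fl/fl it lay inside the interval of the last. The cells with no UMI of the 4 microglial genes were shallower, with medians of 6285 UMIs in cKO and 5182 in fl/fl. These shares were not compared with microglia at equal depth.

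Microglial genes outside the rule were present in the G2/M cells. Csf1r, the receptor on which microglia depend to survive, was at 1369 CPM in cKO and 1426 in fl/fl G2/M cells, against 1832 and 1883 in neither-dividing microglia. Olfml3, a secreted protein of microglia, was at 1507 and 1612, against 1725 and 1734. Both genes were lower in G2/M than in neither-dividing cells of both libraries. The genes that the rule required were, as its description, at 884 (cKO) and 822 (fl/fl) for Tmem119, 661 and 713 for Siglech and 474 and 538 for P2ry12 in G2/M cells.

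Marker lists of other cells were not at 0 in the G2/M cells. Endothelial and mural markers summed to 793 CPM in cKO and 753 in fl/fl G2/M cells, against 818 and 818 in neither-dividing microglia, and 644 and 618 of the G2/M sums came from Bsg, a membrane protein that is not limited to vessels. Border macrophage and dendritic markers summed to 441 and 366, against 224 and 453, led by Cd74, the chaperone of MHC class II, at 237 and 206. Monocyte markers summed to 230.0 and 231, against 127 and 186. This list was thus higher in G2/M cells of both libraries, the border macrophage list in cKO alone. Neutrophil markers summed to 182 and 201, against 219.5 and 227, with S100a8 at 40.9 and 33.0 in G2/M cells, against 14.4 and 16.2. The glial and neuronal list summed to 43.8 and 39.0, and the lymphocyte and erythroid list to 6.55 and 6.07, with 8 of its 13 genes at 0 in each library. Some defining members were near 0 in G2/M cells, such as Ly6g (neutrophils) at 0.201 and 0.132 CPM and Lyve1 (border macrophages) at 0 and 0.462. The part of these cells or of their free RNA in the results was not tested.

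Many genes of cell division outside the rule were higher in the cells. Of the 7861 genes that averaged 10 CPM or more, 429 (5.46%) were at least 2-fold higher in G2/M than in neither-dividing microglia in both libraries, and 63 (0.801%) were at least 2-fold lower. Against S-phase microglia, 126 genes (1.6%) were 2-fold higher in G2/M cells and 2 (0.0254%) were 2-fold lower. The cells were chosen by genes that rise and fall with these, so the counts describe the class and test nothing. Counts given below for gene groups are those 2-fold higher in both libraries.

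For the machinery that starts mitosis, 13 of 18 measured genes of CDK1 control and the APC/C were 2-fold higher than in neither-dividing cells and 11 of 18 were 2-fold higher than in S-phase cells. Cdc20, which activates the APC/C in mitosis, was at 108 CPM in cKO and 96.4 in fl/fl G2/M cells, at 5.50 and 5.52 in S-phase cells, and at 1.68 and 2.11 in neither-dividing cells. Cks1b, a small subunit bound by cyclin-dependent kinases, was at 199 and 148 in G2/M cells, 55.7 and 52.2 in S-phase cells and 15.4 and 11.3 in neither-dividing cells. Pttg1, which encodes securin, did not follow its group: it was at 58.9 and 38.8 in G2/M cells, against 56.0 and 39.8 in neither-dividing cells.

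Kinetochore and spindle genes set G2/M cells off from S-phase cells as well. All 23 measured centromere, kinetochore and checkpoint genes were 2-fold higher than in neither-dividing cells, and 19 of 24 were 2-fold higher than in S-phase cells. Cenpe, a kinesin that carries chromosomes to the spindle equator, was at 137 (cKO) and 115 (fl/fl) CPM in G2/M cells, at 4.0 and 6.49 in S-phase cells, and at 1.92 and 3.66 in neither-dividing cells. Among mitotic kinesins and spindle genes, 18 of 19 passed in each comparison. Hmmr, a spindle assembly factor that also binds hyaluronan, had the largest ratio among the named genes outside the rule, at 112 and 92.5 CPM in G2/M cells, against 1.75 and 4.22 in S-phase and 0.480 and 1.13 in neither-dividing cells.

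For the division of the cell body, 12 of 13 cytokinesis and chromosomal passenger genes were 2-fold higher than in neither-dividing cells, and the same number than in S-phase cells. Cdca8, which encodes the passenger protein borealin, was at 188 (cKO) and 162 (fl/fl) CPM in G2/M cells, 14.0 and 20.4 in S-phase cells and 5.16 and 8.45 in neither-dividing cells. Racgap1, a component of the central spindle, was at 117 and 90.9 in G2/M cells, against 11 and 15.2 in S-phase cells. Both genes thus separated G2/M cells from S-phase cells.

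Chromatin genes were higher too, with a smaller gap to S phase for some. Of condensin, cohesin and chromatin genes, 19 of 22 were 2-fold higher than in neither-dividing cells. Smc4, a condensin subunit, was at 254 (cKO) and 218 (fl/fl) CPM in G2/M cells, 56.7 and 69.4 in S-phase cells and 29.9 and 37.6 in neither-dividing cells. Hmgb2, a DNA-bending chromatin protein, was at 1222 and 929 in G2/M cells, against 417 and 390.3 in S-phase and 240.5 and 229 in neither-dividing cells. Of clustered histone genes, whose messages mostly lack a poly(A) tail and are therefore only partly captured by an oligo-dT method, 7 of 9 were 2-fold higher than in neither-dividing cells and 7 of 10 than in S-phase cells. The linker histone gene Hist1h1b was at 84.4 and 67.6 CPM in G2/M cells, against 2.50 and 6.81 in S-phase cells. The whole histone list summed to 810 (cKO) and 674 (fl/fl) CPM in G2/M cells and to 176 and 222 in S-phase cells. It summed to 212 and 225 in neither-dividing cells, so the S-phase class was no higher than these. How the G2/M and S-phase classes divide the time of DNA replication was not tested.

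Replication genes were high in both G2/M and S-phase cells. All 9 measured genes of the 12 that define the S-phase class were 2-fold higher than in neither-dividing cells, as were 23 of 25 other replication genes, while against S-phase cells 0 of the 12 were 2-fold higher and 1 was 2-fold lower, with median log2 ratios of -0.34 in cKO and -0.71 in fl/fl. The lower gene was Ung, a uracil-DNA glycosylase, at 17.1 (cKO) and 15.6 (fl/fl) CPM in G2/M cells, against 42.2 and 42.5 in S-phase cells. Mcm6, a subunit of the replicative helicase, was at 88.1 (cKO) and 73.3 (fl/fl) CPM in G2/M cells, 131 and 141 in S-phase cells and 3.96 and 5.77 in neither-dividing cells. The S-phase class required UMIs of at least 5 of these 12 genes, and the neither-dividing class allowed at most 1. The values of the 12, Ung and Mcm6 among them, therefore largely describe how the classes were chosen. The 25 other replication genes did not set the classes. UMIs of at least 5 of the 12 S-phase genes were present in 44.7% (40.2–49.3) of G2/M cells in cKO and 45.9% (42.3–49.6) in fl/fl. Of microglia outside G2/M, 13.2% of 1520 in cKO and 10.1% of 1765 in fl/fl met this limit with all UMIs. Those cells were shallower, with medians of 11625.5 and 9196 UMIs, and the part of depth was not tested. After thinning to 5000 UMIs, G2/M cells were called anew, so the cells are not the same. The shares were then 43 of 275, or 15.6% (11.6–20.5), in cKO and 44 of 378, or 11.6% (8.59–15.3), in fl/fl. The like share of thinned microglia outside G2/M is not given.

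**Figure D2:**
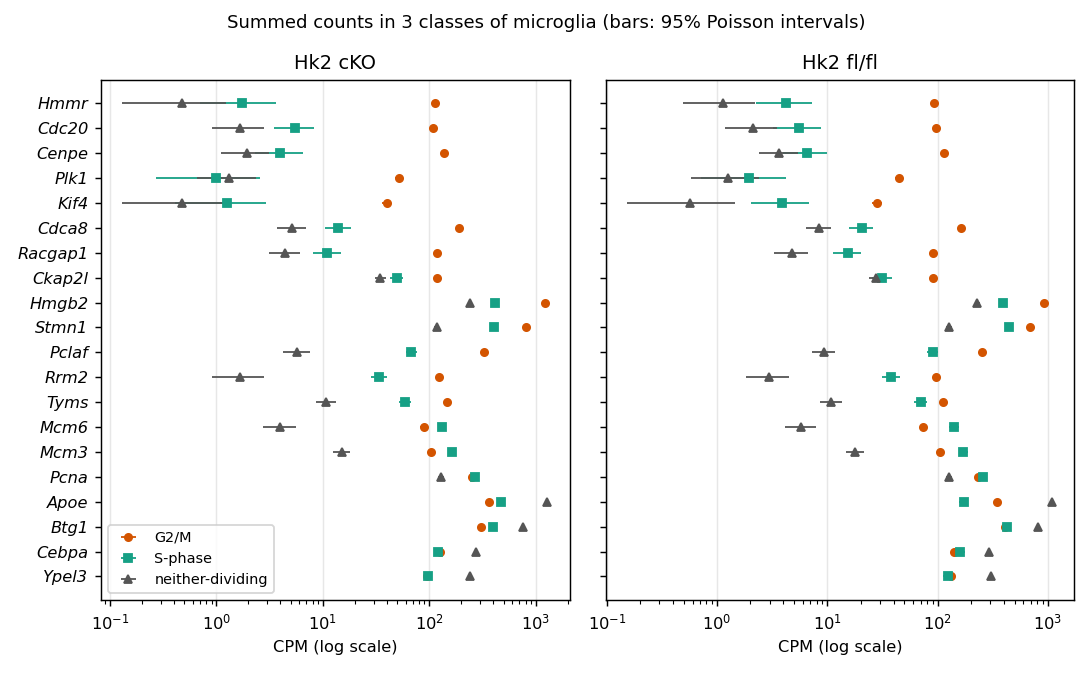
CPM (x axis, log scale) of named genes (y axis) summed over G2/M, S-phase and neither-dividing microglia, Hk2 cKO left and Hk2 fl/fl right, with 95% Poisson intervals. Mitotic genes such as Hmmr (112 CPM in cKO G2/M cells) lie far right of both other classes, while Mcm6 is highest in S-phase cells and Apoe in neither-dividing cells.

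The promoters of these genes were read for 3 short DNA motifs. Genes of late G2 and mitosis often carry a cell cycle homology region, a short element near the start of transcription that is bound by the DREAM complex in resting cells and by B-MYB and FOXM1 complexes in dividing ones, and CCAAT boxes, which bind NF-Y. Genes of S phase more often carry E2F sites. The 5 promoters shown belong to rule genes whose nearest cell cycle homology region lies close to the start; each is the RefSeq sequence of GRCm38.p6, from 250 bases before to 50 bases after the start, on the strand of the gene. Capitals mark the cell cycle homology region (TTTGAA or TTTAAA, or TTCAAA on the other strand) and the CCAAT box (CCAAT, or ATTGG on the other strand). Prc1 (a microtubule bundler of the central spindle) is at chr7:80294201-80294500 on the plus strand, Cdk1 (the mitotic kinase) at chr10:69352863-69353162 on the minus strand, and Top2a (topoisomerase II alpha, which disentangles chromosomes) at chr11:99024140-99024439 on the minus strand. Ube2c is at chr2:164769679-164769978 on the plus strand and Ccnb1 (cyclin B1) at chr13:100786437-100786736 on the minus strand.
Prc1: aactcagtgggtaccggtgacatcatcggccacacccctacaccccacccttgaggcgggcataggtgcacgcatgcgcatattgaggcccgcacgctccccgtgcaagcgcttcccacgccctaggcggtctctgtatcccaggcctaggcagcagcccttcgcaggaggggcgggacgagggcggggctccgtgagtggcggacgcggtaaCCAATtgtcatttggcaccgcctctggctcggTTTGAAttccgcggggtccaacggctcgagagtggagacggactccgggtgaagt
Cdk1: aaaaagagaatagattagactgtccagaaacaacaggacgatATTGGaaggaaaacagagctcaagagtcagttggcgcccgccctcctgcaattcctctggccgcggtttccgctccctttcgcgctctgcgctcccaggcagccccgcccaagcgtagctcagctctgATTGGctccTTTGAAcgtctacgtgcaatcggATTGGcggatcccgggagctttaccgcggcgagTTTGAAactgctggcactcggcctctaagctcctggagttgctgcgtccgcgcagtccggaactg
Top2a: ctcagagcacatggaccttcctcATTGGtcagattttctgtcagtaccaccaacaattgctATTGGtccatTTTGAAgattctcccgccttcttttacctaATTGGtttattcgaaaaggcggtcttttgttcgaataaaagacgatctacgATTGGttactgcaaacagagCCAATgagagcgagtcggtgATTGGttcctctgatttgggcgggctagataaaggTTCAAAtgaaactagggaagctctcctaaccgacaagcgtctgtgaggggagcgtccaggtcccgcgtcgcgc
Ube2c: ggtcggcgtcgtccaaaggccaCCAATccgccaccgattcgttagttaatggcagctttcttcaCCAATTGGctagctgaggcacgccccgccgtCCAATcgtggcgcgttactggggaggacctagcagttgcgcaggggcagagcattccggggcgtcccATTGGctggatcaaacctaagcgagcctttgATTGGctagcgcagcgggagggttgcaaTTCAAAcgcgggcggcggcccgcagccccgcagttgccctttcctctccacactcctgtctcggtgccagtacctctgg
Ccnb1: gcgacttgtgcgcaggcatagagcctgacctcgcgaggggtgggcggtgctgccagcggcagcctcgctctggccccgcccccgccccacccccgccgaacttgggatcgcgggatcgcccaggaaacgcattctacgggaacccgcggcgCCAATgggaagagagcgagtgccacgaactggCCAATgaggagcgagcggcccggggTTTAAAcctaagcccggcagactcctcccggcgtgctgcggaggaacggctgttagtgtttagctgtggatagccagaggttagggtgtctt

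The nearest cell cycle homology region began 5 bases before the start in Prc1, 15 in Cdk1, 23 in Top2a, 29 in Ube2c and 42 in Ccnb1. The number of CCAAT boxes in the window was 1 in Prc1, 3 in Cdk1, 6 in Top2a, 6 in Ube2c and 2 in Ccnb1. Of the 12 rule genes, 9 had a promoter in the table, and Ccna2, Tpx2 and Aurkb are named only. The cell cycle homology region was in 8 of the 9, the CCAAT box in 7, and the E2F words (TTTCCCGC and TTTGGCGC, with GCGGGAAA and GCGCCAAA on the other strand) in 0. No motif was found in the Nusap1 window.

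The motifs were common in promoters of genes that set G2/M cells apart. Of 92 promoters of genes 2-fold above both neither-dividing and S-phase microglia, 66 (71.7%) held the cell cycle homology region, or 69.9% of 83 without the rule genes. It was in 25.2% of 254 promoters of genes above neither-dividing but not S-phase cells, in 12.8% of 47 promoters of genes lower in G2/M cells, and in 18.5% of 6198 promoters of all measured genes. Over all 27025 genes in the table the share was 27.8%. CCAAT boxes were in 68.5%, 53.5%, 31.9% and 38.8% of the same 4 sets, and in 37.9% of the whole table. E2F words showed another order, at 6.52%, 13.4%, 2.13% and 3.6%, with 1.63% in the whole table. A match describes letters in this window and not a bound site. The words overlap in part: ATTGG and CCAAT share letters in the Ube2c promoter, and GCGCCAAA of E2F can run into a CCAAT box.

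**Figure D3:**
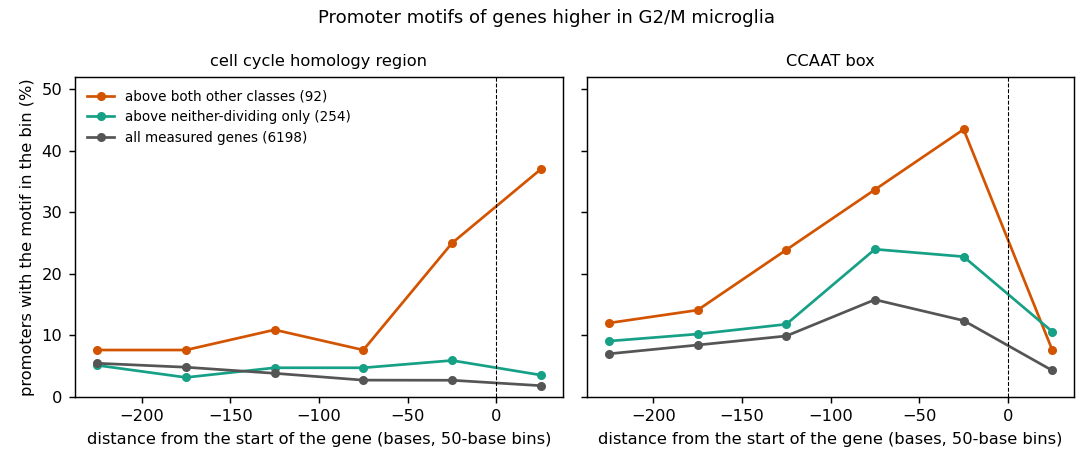
Percent of promoters with a motif (y axis) in 50-base bins by distance from the start of the gene (x axis), for genes 2-fold higher in G2/M microglia and for all measured genes. In the genes above both other classes, the cell cycle homology region was in 25.0% of promoters in the last 50 bases before the start and in 37.0% in the 50 bases after it, against 2.69% and 1.81% of all measured genes.

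Among the genes lower in G2/M cells, Apoe, which encodes apolipoprotein E, was at 360 (cKO) and 345 (fl/fl) CPM in G2/M cells, against 1282 and 1091 in neither-dividing microglia. Abca1, a cholesterol exporter, was at 24.2 and 34.3, against 93.5 and 88.1. Ctsd, which encodes the lysosomal protease cathepsin D, was at 4046 and 3939, against 9176 and 8045. Cebpa, a transcription factor of myeloid differentiation, was at 127 and 141, against 275 and 294. Of the 18 measured homeostatic genes only Crybb1 was 2-fold lower in both libraries (15.5 and 11.9 CPM in G2/M cells, against 41.3 and 29.1), although the list's sum was 25048 and 26217 CPM in G2/M cells, against 40904 and 40627. The number of lower genes was unstable: it was 1 when all other microglia were the comparison, 26 with 5 CPM added, 17 among genes averaging 50 CPM or more, 124 after thinning to 5000 UMIs and 101 without the 5% of microglia with most UMIs.

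Some metabolic genes were also higher in G2/M cells. Of 18 measured glycolysis and glucose uptake genes, Ldha and Tpi1 were 2-fold higher in G2/M than in neither-dividing microglia in both libraries. Ldha, which makes lactate, was at 539 (cKO) and 471 (fl/fl) CPM in G2/M cells, at 542 and 496 in S-phase cells, and at 226 and 223 in neither-dividing cells. Fdps, Idi1 and Sqle, which act in cholesterol synthesis, also passed. Idi1, the isomerase of the isoprenoid branch, was at 46.3 and 37.1 in G2/M cells, 58.5 and 55.2 in S-phase cells and 15.5 and 13.7 in neither-dividing cells. Both genes were at least as high in S-phase as in G2/M cells, unlike the mitotic genes. Of 18 pentose phosphate and nucleotide synthesis genes, 7 were 2-fold higher than in neither-dividing cells.

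G2/M cells differed among themselves along the number of S-phase genes they still carried. With 0 to 1, 2 to 4, 5 to 8 and 9 to 12 of the 12 S-phase genes there were 101, 161, 123 and 89 cells in cKO and 156, 237, 212 and 122 in fl/fl. Median depth climbed along the same bins, with 10462 UMIs in the lowest and 27345 in the highest bin of cKO and 10115 and 28009 in fl/fl, and its part in the pattern was not tested. Cenpa, the centromeric histone H3 variant, was at 354, 333, 244 and 77.7 CPM across the 4 bins in cKO and at 342, 300.1, 208 and 93.2 in fl/fl. Cdc20 took the same course, at 166, 157, 108 and 33.4 in cKO and 148, 139, 86.4 and 44.8 in fl/fl. Both genes were highest in cells with few S-phase genes in each library. Top2a was highest with 5 to 8 S-phase genes, at 346 in cKO and 312 in fl/fl. Mcm6 was at 3.33 in the lowest and 187 in the highest bin of cKO, and at 3.84 and 134 in fl/fl, and it belongs to the genes that set the bins.

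Between the lowest and the highest of these bins, 24 of 25 replication genes that did not set the bins were 2-fold lower in cells with few S-phase genes in both libraries. Of the 12 rule genes 4 were 2-fold higher there. Members needed UMIs of at least 5 of these 12 genes and the low bin was shallower, so this count describes the rule. Of 20 mitotic kinesin and spindle genes 5 were 2-fold higher in cells with few S-phase genes. Of 21 CDK1 and APC/C genes 5 were higher and 3 were lower. Centromere, kinetochore and checkpoint genes as a list did not share the course of Cenpa, with 1 of 26 higher and 3 lower, and of 13 cytokinesis genes 1 was higher and 0 lower. Of 25 interferon response genes, 0 were past 2-fold in the same direction in both libraries, although single genes were in 1 library: Ifit1 had a log2 ratio (few over many S-phase genes) of 1.01 in cKO and -1.87 in fl/fl. Their sum was 7621, 8187, 8052 and 7664 CPM across the bins in cKO, and 4159, 3882, 3757 and 3553 in fl/fl. The share of all measured genes past 2-fold between these bins is not given, so the list counts cannot be set against it.

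**Figure D4:**
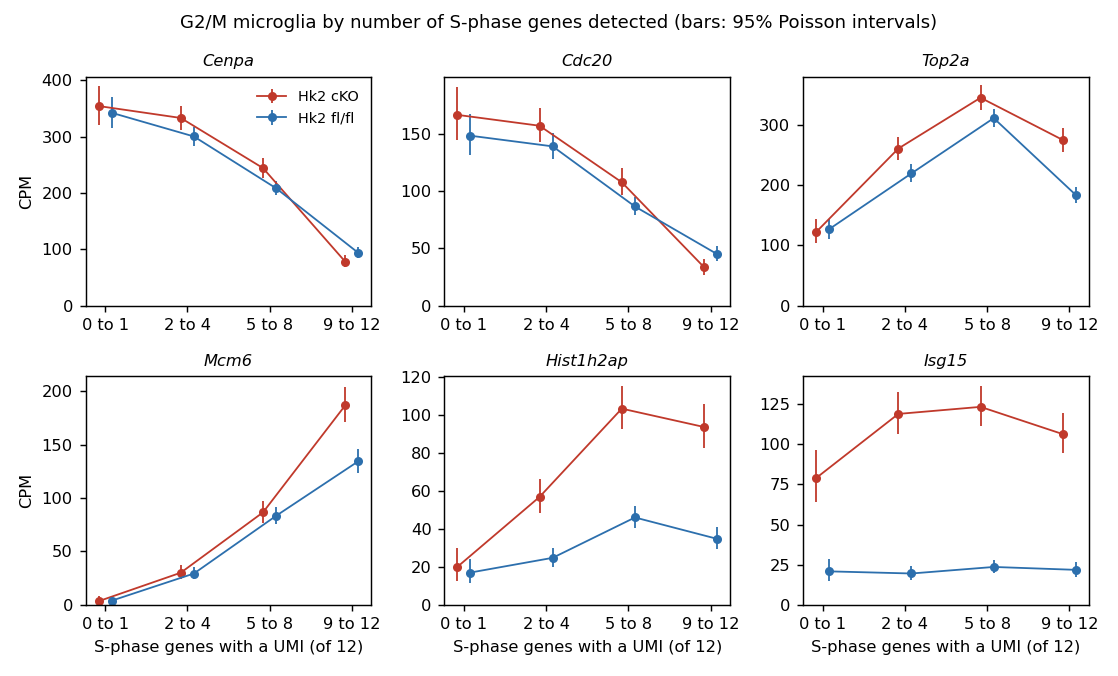
CPM (y axis) of single genes in G2/M microglia by number of the 12 S-phase genes detected (x axis), Hk2 cKO and Hk2 fl/fl, with 95% Poisson intervals. Cenpa is lowest in the bin with 9 to 12 S-phase genes (77.7 CPM in cKO), and Isg15 in cKO lies above fl/fl in every bin.

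The targeted gene was low in cKO G2/M cells. Hk2 (chr6:82725025-82774454, minus strand, GRCm38) had 374 UMIs in cKO and 2223 in fl/fl G2/M cells, or 37.7 CPM (33.9–41.7) and 146.6 (140.6–152.8), a log2 ratio of -1.93 with 1 CPM added. It was at 37.0 and 185 in S-phase cells and at 53.7 and 187 in neither-dividing cells, so its level in fl/fl was not higher in dividing microglia. Counts come from the 3' end and may lie outside the deleted exons. Cx3cr1, whose locus carries the Cre in cKO mice, was at 646 in cKO and 1282 in fl/fl G2/M cells. Of the other hexokinases, Hk1 was at 9.16 and 11.3 and Hk3 at 56.6 and 46.2, and Hkdc1 was under 1 CPM.

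Across all genes, the balance of higher and lower calls between genotypes differed with the cells and the depth compared. Of the 7833 genes that averaged 10 CPM or more over the G2/M cells of both libraries, 104 (1.33%) were at least 1.5-fold higher in cKO and 71 (0.906%) at least 1.5-fold lower. Among Gm28438-only cells 160 were higher and 237 lower, and after thinning to 5000 UMIs 260 were higher and 483 lower. The thinned sums rest on 275 cKO and 378 fl/fl cells of 5000 UMIs each. The main sums hold 9931298 and 15164939 UMIs, so counting error is wider after thinning. Its part in the larger counts was not tested. By any amount, 3351 of the 7833 genes were higher in cKO G2/M cells and 4482 were lower. Their median log2 ratio was -0.03, and it lay between -0.06 and -0.0006 in 16 alternative settings. In neither-dividing microglia the counts were 113 of 7638 (1.48%) higher and 56 (0.733%) lower. Poisson intervals did not overlap for 777 genes (9.92%) higher and 1065 (13.6%) lower in cKO G2/M cells, a count that reflects the number of UMIs and not a spread between animals.

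Interferon response genes were higher in cKO as a group. All 25 measured genes of the list were higher in cKO G2/M cells and 24 of them by at least 1.5-fold, the exception being Slfn2 with a log2 ratio of 0.47. The list's median log2 ratio was 1.34 in G2/M cells, beside 1.04 in S-phase and 1.17 in neither-dividing microglia. Its sum was 7931 CPM (7875–7986) in cKO and 3783 (3752–3814) in fl/fl G2/M cells. The genotype ratio was therefore present in all 3 classes, and a difference between classes was not tested. Among Gm28438-only G2/M cells the median was 1.17, with 25 of 25 higher.

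Isg15, a ubiquitin-like modifier, was at 112 CPM (106–119) in cKO and 21.7 (19.4–24.2) in fl/fl G2/M cells, a log2 ratio of 2.32. Irf7, the factor that amplifies type I interferon transcription, was at 90.0 and 27.7. Ifitm3, a membrane protein that blocks viral entry, was at 983 and 337, and Bst2 (tetherin, which holds budding virus at the cell surface) at 780 and 295. Each of these 4 genes was more than 2-fold higher in cKO, and each kept that direction in all 16 alternatives. Isg15 was at 86.5 in cKO and 17.2 in fl/fl S-phase cells, and at 108 and 27.3 in neither-dividing cells.

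MHC class I genes, which present peptides to T cells and respond to interferon, were higher in cKO for all 10 measured members, 3 of them by 1.5-fold, with a median log2 ratio of 0.47 in G2/M cells. B2m, the shared light chain, was at 2155 in cKO and 1589 in fl/fl G2/M cells. H2-K1, a classical heavy chain, was at 879 and 594. Between classes the level ran the other way: B2m was at 3056 in cKO and 2176 in fl/fl neither-dividing microglia. H2-Q7 and its neighbours are near-identical copies, and their counts are uncertain.

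Mitotic genes were slightly higher in cKO G2/M cells and this direction depended on which cells were compared. All 12 rule genes were higher in cKO, none by 1.5-fold, with a median log2 ratio of 0.27, but among Gm28438-only cells 2 of 12 were higher and the median was -0.13. Prc1 was at 124 in cKO and 96.4 in fl/fl G2/M cells, Aurkb (the chromosomal passenger kinase) at 77.2 and 56.5, and Mki67 (which coats mitotic chromosomes) at 273 and 262. Among Gm28438-only cells the log2 ratio of Prc1 was -0.12 in place of 0.36, that of Mki67 was -0.49 in place of 0.06, and that of Aurkb was 0.02 in place of 0.44. The direction of Mki67 turned in 6 of 16 alternatives and that of Prc1 in 1. The rule itself required these genes, so their levels describe the members. Of genes outside the rule, 23 of 26 centromere and kinetochore genes were higher in cKO with a median of 0.25, against 6 of 26 and -0.13 among Gm28438-only cells. Of 20 mitotic kinesin and spindle genes, 19 were higher with a median of 0.24, against 8 of 23 and -0.15. All 13 cytokinesis genes were higher with a median of 0.22, against 1 of 13 and -0.16. Of all 7833 measured genes, 3351 were higher in cKO G2/M cells. The like count is not given for Gm28438-only or thinned cells. After thinning to 5000 UMIs the counts were 14 of 27 centromere and kinetochore genes (median 0.03), 14 of 23 kinesin and spindle genes (0.06), 8 of 13 cytokinesis genes (0.03) and 10 of 12 rule genes (0.14). The summed level of the rule genes was 2152 CPM in Gm28438-only cKO cells, and 2441 in Gm28438-only, 1828 in mt-Nd3-only and 1393 in fl/fl cells with both.

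Clustered histone genes gave the largest single ratios of the division genes. Hist1h2ap, an H2A gene, was at 77.3 CPM (72.0–83.0) in cKO and 33.9 (31.0–37.0) in fl/fl G2/M cells, a log2 ratio of 1.17 that ranged from 0.51 to 1.23 over the 16 alternatives. In neither-dividing cells it was at 0.961 and 1.55. Hist1h2ae was at 72.6 and 44.6 in G2/M cells. Of 13 measured histone genes 11 were higher in cKO and 2 by 1.5-fold, with a median of 0.28, but 1 of 14 was higher among Gm28438-only cells (median -0.21) and 5 of 14 after thinning to 5000 UMIs (median -0.06). Within the fl/fl library Hist1h2ap was at 52.4 in Gm28438-only, 31.9 in mt-Nd3-only and 22.2 in G2/M cells with both, against 75.2 in Gm28438-only cKO cells. Across the bins of S-phase genes it was at 20.0, 56.9, 103 and 93.7 in cKO and at 17.0, 24.8, 46.0 and 34.8 in fl/fl. The genotypes thus lay closest in cells with the fewest S-phase genes. These genes sit in clusters of near-identical copies, so the split of their counts is uncertain.

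**Figure D5:**
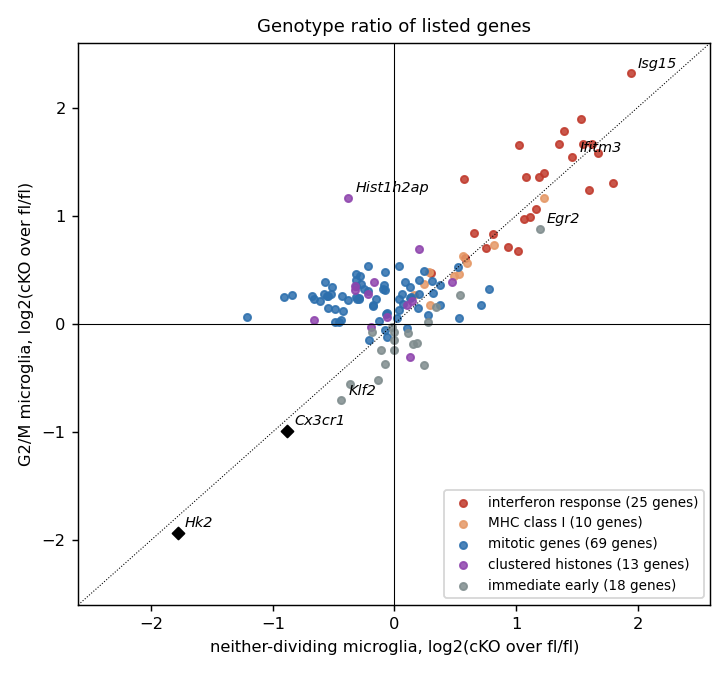
Log2 ratio of Hk2 cKO over Hk2 fl/fl for listed genes in G2/M microglia (y axis) and in neither-dividing microglia (x axis), 1 point per gene. All 25 interferon genes are above 0 in G2/M cells, while 65 of 69 mitotic genes are above 0 in G2/M cells and 45 are below 0 in neither-dividing cells. The direction in G2/M cells turns when only Gm28438-only G2/M cells are compared. The 69 genes include the 12 rule genes, whose UMIs were required in G2/M cells and limited in neither-dividing cells. Their points therefore describe how the classes were chosen. Of all 7833 measured genes, 3351 are above 0 in G2/M cells, and their median in neither-dividing cells is -0.02. The share of all genes below 0 in neither-dividing cells is not given. Neither-dividing cells were deeper in cKO (median 9913.5 UMIs) than in fl/fl (7598). The part of this depth and of the limit on rule genes in the other mitotic genes was not tested.

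Replication and metabolic genes moved little between genotypes. Of 25 other replication genes 22 were higher in cKO G2/M cells, with a median log2 ratio of 0.18 and none past 1.5-fold, against 0 of 25 and -0.17 among Gm28438-only cells. Of 18 measured glycolysis and glucose uptake genes 16 were higher, with a median of 0.11, and 10 of 18 with 0.05 among Gm28438-only cells. Ldha was at 539 in cKO and 471 in fl/fl G2/M cells. Slc2a1, the glucose transporter GLUT1, was at 53.8 and 48.5. Of 18 cholesterol synthesis genes 16 were higher with a median of 0.16, against 5 of 18 and -0.10 among Gm28438-only cells. None of these lists had a gene past 1.5-fold apart from Hk2 itself, which was listed with the hexokinases.

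Among transcription factors lower in cKO G2/M cells, Klf2, a factor linked to quiescence, was at 305 (294–316) in cKO and 498 (487–510) in fl/fl G2/M cells, a log2 ratio of -0.71 that ranged from -1.02 to -0.56 over the 16 alternatives. Klf6 was at 626 and 924. Id2, an inhibitor of helix-loop-helix factors, was at 173 and 264. Klf2 and Klf6 were also lower in cKO neither-dividing microglia, at 584 and 1159 in cKO, against 790.2 and 1496 in fl/fl. Of 18 immediate early genes 14 were lower in cKO G2/M cells, with a median of -0.16, but 11 of 18 were higher among Gm28438-only cells (median 0.11). Egr2, an early growth response factor, went against the list at 40.5 in cKO and 21.6 in fl/fl G2/M cells. Enzymatic dissociation and sorting induce early-response genes, and their part was not tested.

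Ch25h had unlike genotype ratios by class. This interferon-responsive gene encodes the enzyme that hydroxylates cholesterol at its side chain, and it was at 70.8 in cKO and 38.8 in fl/fl G2/M cells, against 80.5 and 86.0 in S-phase cells and 41.8 and 50.5 in neither-dividing cells. Its log2 ratio was 0.85 in G2/M cells, -0.09 in S-phase cells and -0.27 in neither-dividing cells, and the difference between classes was not tested. Mxd4, a MYC antagonist that is high in resting cells, was at 42.0 and 69.7 in G2/M cells, but its log2 ratio of -0.72 turned to 0.48 among Gm28438-only cells. Plau, which encodes urokinase, was at 95.05 and 49.3 in G2/M cells and at 90.2 and 40.1 in neither-dividing cells, and so differed in both classes.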

How the data were processed

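Droplet-based 3' single-cell RNA-seq of sorted brain cells was used, with 1 library per genotype at day 3 of repopulation. The authors deposited filtered matrices of raw UMI counts per gene and barcode, made with bcl2fastq and Cell Ranger 3.1.0 on GRCm38 per the submitters' processing notes. All 55450 gene identifiers were found in GENCODE M21. Introns, ambient RNA and doublets were not treated by any step stated in the sources used here. The members and gene lists were chosen with earlier results of these data known.

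Counts were summed per library and class and scaled to 1000000 UMIs of the class (CPM). Ratios were log2 with 1 CPM added. Genes were compared where they averaged 10 CPM or more. No test could be run on 1 library per genotype, so a gene was counted as different at 1.5-fold (genotype) or at 2-fold in both libraries (class). No doublet caller was used and doublets were left in; an alternative drops the 5% of microglia with most UMIs. Genes named are the rule genes, the hexokinases and Cx3cr1, the 15 highest and 10 lowest of G2/M against neither-dividing microglia, the 12 highest and 12 lowest by genotype among genes averaging 50 CPM or more with separate intervals, and of each list its largest ratios and most abundant members. Ly6g, Lyve1, Csf1r, Olfml3, Ung, Pttg1, Ifit1 and Slc2a1, where outside that rule, were named after their values were seen. Cells were thinned to 5000 or 2500 UMIs with a fixed seed. Promoters were read from RefSeq windows (GRCm38.p6, 27025 genes, annotation of the same build). Simulated summed counts were used to check that planted fold changes and Poisson intervals were recovered. Thinning was checked to keep the set number of UMIs. The class rules, shares, bins of S-phase genes and promoter steps were not checked on simulated data. TMM factors came from edgeR 4.0.16 in R 4.3.3. All else ran in Python 3.11.15 (matplotlib 3.10.9, pandas 2.3.3, numpy 2.4.6 and scipy 1.17.1).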

Additional observations from a re-analysis of the deposited data

How the results depend on the processing

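Interferon response and MHC class I lists, Hk2, Cx3cr1, Isg15, Irf7, Ifitm3, Bst2, Hist1h2ap, Klf2 and Klf6 kept their direction in all 16 alternatives. The share of G2/M cells, 23.8% in cKO and 29.2% in fl/fl, was 37.2% and 44.4% with 3 of the 12 genes, 18.2% and 19.7% with 7 of 12, 27.1% and 31.9% with all 4 microglial genes required, 14.8% and 16.3% at 5000 UMIs, 9.08% and 9.74% at 2500 UMIs, and 21.2% and 26.3% without the deepest 5%; in fl/fl it was 26.1% without cells with both mt-Nd3 and Gm28438. The difference of -5.40 percentage points was -1.51 with 7 of 12 genes, -1.55 at 5000 UMIs, -0.663 at 2500 UMIs and -2.41 without cells with both. The 429 genes higher in G2/M became 235 against all other microglia, 127 at a mean of at least 50 CPM and 666 with no minimum. The 63 lower became 31 with 3 of 12 genes, 26 with 5 CPM added, 1 against all other microglia, 124 at 5000 UMIs, 17 at 50 CPM, 134 as a mean over cells, and 101 with no minimum, without cells with both, and without the deepest 5%. The 104 genes higher in cKO became 160 among Gm28438-only cells, 260 at 5000 UMIs, 40 at 50 CPM and 370 with no minimum. The 71 lower became 44 with 3 of 12 genes, 31 with 5 CPM added, 237 among Gm28438-only cells, 483 at 5000 UMIs, 10 at 50 CPM, 112 as a mean over cells, 456 with no minimum and 183 without cells with 5 S-phase genes. Mxd4 reversed to 0.48 among Gm28438-only cells. The cause of these changes was not tested. Of the other results 241 moved and 805 did not. The alternatives without cells with both, and of cKO Gm28438-only against fl/fl mt-Nd3-only cells, were chosen after seeing the data. No paired analysis was possible because there was 1 library per genotype. Gm28438-only cells number 438 in cKO and 146 in fl/fl, so values among them have wider counting error. Values after thinning to 5000 UMIs, from 275 cKO and 378 fl/fl G2/M cells, have wider counting error too.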

Other observations

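Cytokine and chemokine genes were abundant in G2/M microglia and lay on both sides between genotypes. Ccl4, a chemokine of activated microglia, was at 3359 CPM in cKO and 2049 in fl/fl G2/M cells, Ccl2 (which draws in monocytes) at 2183 and 1428, Ccl12 at 1268 and 632, and Tnf at 791 and 503. Of the 17 measured genes 11 were higher in cKO and 4 by at least 1.5-fold, where 1.33% of all measured genes passed that size, and the list's median log2 ratio was 0.12, but after thinning to 5000 UMIs 8 of 17 were higher and the median was -0.03. The list summed to 13882 CPM in cKO and 10309 in fl/fl G2/M cells, against 15587 and 11338 in neither-dividing microglia, so a like genotype ratio was present outside division. Il1b was at 328 and 279 in G2/M cells and at 431 and 227 in neither-dividing cells.

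Inhibitors of the cell cycle did not follow 1 direction in G2/M cells. Cdkn2c and Cdkn2d, which encode inhibitors of CDK4 and CDK6, were higher in G2/M cells: Cdkn2c was at 71.5 in cKO and 56.4 in fl/fl, against 15.9 and 15.9 in neither-dividing microglia, and Cdkn2d was at 91.2 and 77.7, against 27.7 and 30.1. Cdkn1a (p21) was at 564 and 516 in G2/M cells, against 981 and 798 in neither-dividing cells. Btg1, an antiproliferative factor, was at 306 and 407, against 761 and 820.2. Among genes of the damage-associated state, Spp1 (osteopontin) was at 184 in cKO and 124 in fl/fl G2/M cells, against 90.1 and 92.8 in neither-dividing cells, while Cd63, a late-endosomal tetraspanin, was at 168 and 151, against 367 and 301.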
